A study of Mus musculus with 9 samples.

Results

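Messenger RNA levels of 10 genes of hepcidin control and iron handling were compared in mouse liver after an overdose of acetaminophen (APAP), with and without cell therapy. The genes were taken by name (Hamp, Hamp2, Id1, Tfrc, Tfr2, Trf, Fth1, Ftl1, Slc40a1 and Hpx) from a table of 54532 genes. All 10 were among the 9699 with a mean of at least 1 FPKM that entered the tests. FPKM are fragments per gene, scaled to the length of the gene and by a scaling factor of the library. RNA came from the whole liver of male C57BL/6 mice, 9 in all and 3 per group. NC mice were controls. APAP mice were fasted overnight, received 500 mg/kg APAP into the peritoneum and were sampled 6 h later. AMSC mice received the same dose after the same fast and, straight after it, adipose-derived mesenchymal stem cells through the tail vein, and were sampled at 6 h too. These cells were cultured from the inguinal fat of C57BL/6 mice, so their transcripts cannot be told from those of the host, and no genotype differed between groups. The fast is stated for the animals given APAP and was not separately stated for NC mice. NC replicate 3 carries a different label date than the other 8 libraries. In whole tissue, fewer cells of a type and less RNA per cell cannot be told apart.

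The liver sets the iron level of the body through hepcidin, a peptide hormone that hepatocytes secrete and that binds ferroportin, the exporter of iron from cells, and has it degraded. Transcription of the hepcidin gene is raised by bone morphogenetic proteins through SMAD factors, which signals iron stores, and by interleukin-6 through STAT3, which signals inflammation. Inside cells, iron regulatory proteins bind hairpins in messenger RNAs, which blocks translation where the hairpin precedes the coding sequence and stabilises the message where it follows it.

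Such iron-responsive hairpins were found in 4 of the 10 genes, and they are shown because they set the ferritins and ferroportin apart from the transferrin receptor. The search asked for a stem with an unpaired C and the loop letters CAGTGN in GENCODE transcripts on GRCm38. It found a match in the untranslated regions of 156 of 22527 coding genes (0.693%), of which 28 genes (0.124%) had it before and 128 (0.568%) after the coding sequence. Capitals mark the loop, and each sequence is written 5′ to 3′ on the strand of the gene.
Fth1, 5′ untranslated region, chr19:9982732-9982759, plus strand: ttcctgcttcaaCAGTGCttgaacggaa
Ftl1, 5′ untranslated region, chr7:45459780-45459807, minus strand: gtcttgcttcaaCAGTGTttgaacggaa
Slc40a1, 5′ untranslated region, chr1:45925466-45925493, minus strand: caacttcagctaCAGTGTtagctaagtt
Tfrc, 3′ untranslated region, chr16:32631219-32631246, plus strand: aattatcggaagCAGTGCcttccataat
Tfrc, 3′ untranslated region, chr16:32631598-32631625, plus strand: cattatcgggagCAGTGTcttccataat
Tfrc, 3′ untranslated region, chr16:32631663-32631690, plus strand: ctatatcggagaCAGTGAtctccatatg
Tfrc, 3′ untranslated region, chr16:32631710-32631737, plus strand: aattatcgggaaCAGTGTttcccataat
The ferritin genes and Slc40a1 thus held 1 hairpin each before the coding sequence, and Tfrc held 4 after it.

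The promoters of Hamp and its neighbouring copy Hamp2 are shown because the copies differed in their values, as described later. RefSeq promoter windows on GRCm38.p6 (250 bases before to 50 after a start site) were given for 7 of the 10 genes. Capitals mark the core of the BMP response element (GGCGCC, or the letters aligned with it in Hamp2) and the STAT motif TTCNNNGAA, which were searched on both strands and do not overlap.
Hamp, chr7:30944098-30944158, minus strand: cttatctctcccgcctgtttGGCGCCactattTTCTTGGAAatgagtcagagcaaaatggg
Hamp2, chr7:30924247-30924307, minus strand: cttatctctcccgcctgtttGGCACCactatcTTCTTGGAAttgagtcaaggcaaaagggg
Relative to the start site, the stretch begins at -129 in Hamp and at -126 in Hamp2. Both copies held the STAT letters, which occur in 8.3% of 32851 promoter windows. The letters GGCGCC, which occur in 11.9% of the windows, were in Hamp and not in the Hamp2 window, which carries the substitution G145A (counted from 1 at the 5′ end of the Hamp window). Among the other genes GGCGCC was found in a window of Tfrc. These matches describe letters and not binding.

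The libraries held 13418921 to 16210930 reads on genes, and each read on a 1 kilobase gene was worth 0.0578 to 0.0807 FPKM. The 10 genes had between 89 reads (Hamp2) and 88735 reads (Hpx) in a library. Hepatocyte markers (10 genes, Alb and Apoa1 among them) summed to 42881 to 46412 FPKM in NC, 60954 to 70850 in APAP and 56407 to 58483 in AMSC livers. By mean FPKM, which is per length, Hpx, Fth1, Ftl1 and Hamp ranked 17, 23, 33 and 41 among the 9699 genes. Trf ranked 201 and Tfr2 464, while Hamp2, Id1, Slc40a1 and Tfrc ranked 1367, 2743, 2834 and 3193.

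Between APAP and NC livers, Hpx, Fth1 and Id1 rose and Hamp and Slc40a1 fell, and none of them was a DEG. Between AMSC and APAP livers, Hamp rose and Tfrc fell, and both were DEGs. Between AMSC and NC livers, Ftl1, Fth1, Hpx and Id1 rose and Tfrc fell, and Id1 was a DEG. Genes passed at an adjusted p of at most 0.05 from limma, and DEGs also differed by at least 1 either way on the log2(FPKM + 1) scale. In APAP against NC, 5 of the 10 genes passed (3 rose and 2 fell), where 25.9% of all genes tested did (12.8% rose and 13.1% fell), and 0 of the 10 were DEGs, where 7.9% of all were. At an unadjusted p under 0.05 there were 7, and voom on the recovered reads gave 6 passing genes and 0 DEGs. In AMSC against APAP, 2 of 10 passed (1 rose and 1 fell) and 2 were DEGs, against 3.78% (1.64% rose and 2.14% fell) and 1.96% of all genes. In AMSC against NC, 5 of 10 passed (4 rose and 1 fell) and 1 was a DEG, against 26.0% (14.1% rose and 11.9% fell) and 6.01% of all genes. The groups did not overlap for 7, 2 and 7 of the 10 genes in the same order, where this held for 43.2%, 27.0% and 43.5% of all genes tested. The median log2 fold change of the 10 genes was 0.38, 0.05 and 0.43, and that of all genes tested was -0.0043, 0.013 and 0.016. Any pair of the comparisons shares 3 livers. When all 24849 genes above 0 were tested, every call of the 10 genes except that of Ftl1 in AMSC against NC was lost (adjusted p = 0.0525 to 0.178).

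**Figure D1:**
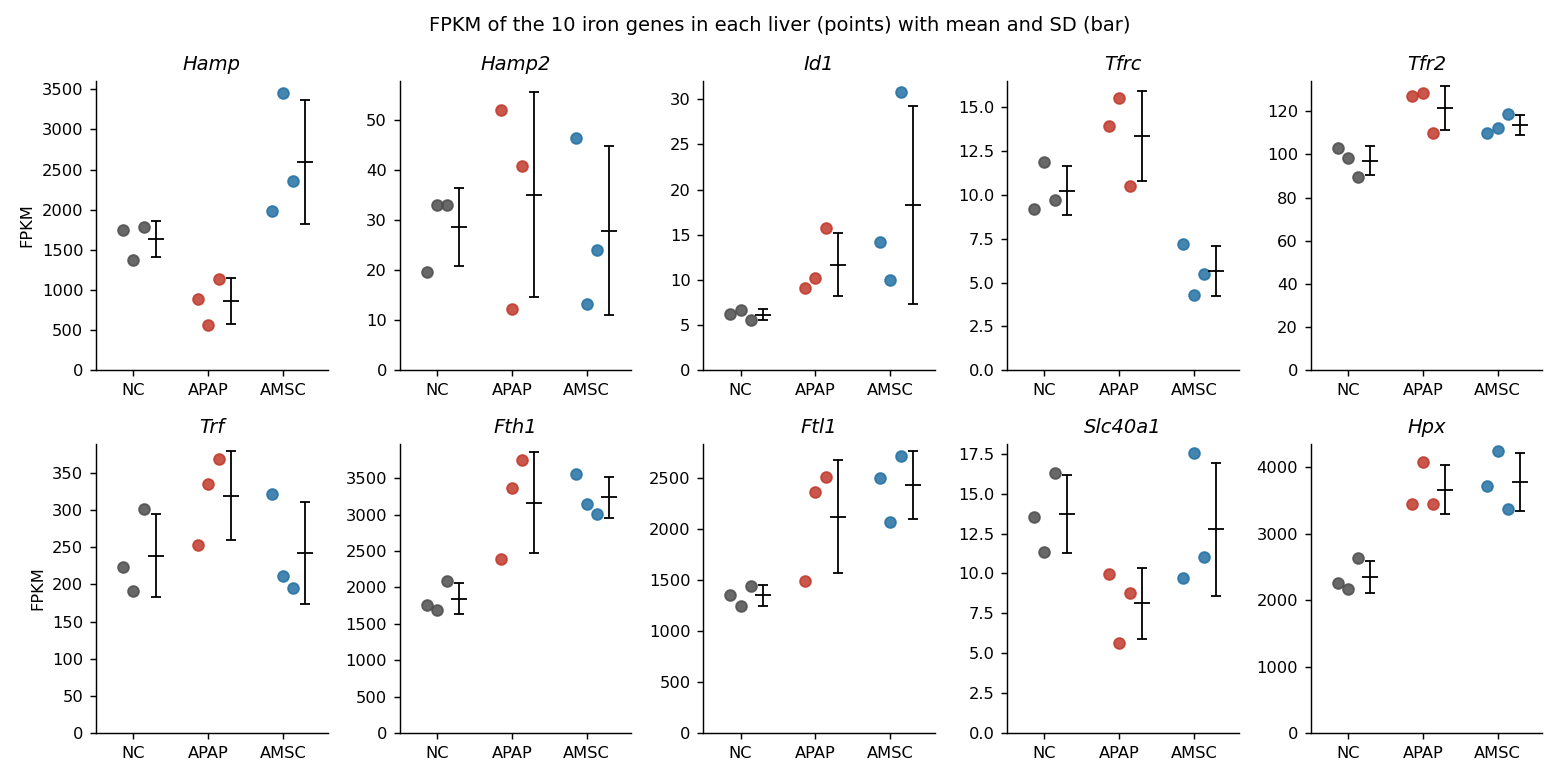
FPKM of each of the 10 genes (vertical axis, from 0) in the 3 livers of the NC, APAP and AMSC groups (coloured points), with the group mean and SD as a bar beside them. Hamp was between 566 and 1136 FPKM in APAP livers and between 1977 and 3457 in AMSC livers, and Tfrc was between 10.5 and 15.6 in APAP and between 4.32 and 7.18 in AMSC livers.

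Hamp (ENSMUSG00000050440, GRCm38 chr7:30942368-30944032, minus strand), which encodes hepcidin, was lowest in APAP and highest in AMSC livers. Its level was 1743, 1378 and 1789 FPKM in NC replicates 1, 2 and 3, and 881, 566 and 1136 FPKM in APAP replicates 1, 2 and 3. In AMSC replicates 2, 3 and 4 it was 1977, 3457 and 2352 FPKM. No 2 groups overlapped, and the lowest APAP and the highest AMSC liver lay 6.11-fold apart. Hamp fell in APAP against NC livers, from 1637 ± 225 to 861 ± 286 FPKM (SD, n = 3), or by -0.97 on the log2(FPKM + 1) scale (SE 0.25, limma adjusted p = 0.0277). It rose in AMSC against APAP livers to 2596 ± 770 FPKM, 3.01 times the APAP mean, or by 1.61 on the same log2 scale (SE 0.30, limma adjusted p = 0.0343). The mean of AMSC livers was above that of NC livers, but this difference did not pass (log2 fold change 0.63, 95% interval 0.13 to 1.14, adjusted p = 0.0659). It passed with voom (0.64, adjusted p = 0.0399) and without AMSC 2 (0.81, adjusted p = 0.0408). By mean FPKM among all genes tested, Hamp ranked 34 in NC, 66 in APAP and 26 in AMSC livers.

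The calls of Hamp depended on single livers. The fall was not called without NC 1, NC 2, NC 3 or APAP 2 (adjusted p = 0.0505 to 0.0900), and without APAP 2, the lowest liver, the log2 fold change was -0.70. The rise was not called without APAP 1, APAP 2, AMSC 2, AMSC 3 or AMSC 4 (adjusted p = 0.0512 to 0.108, log2 fold change 1.33 to 1.78). Neither was called when all 24849 genes above 0 were tested (adjusted p = 0.133 and 0.178), and the rise was not called after quantile normalization (1.58, adjusted p = 0.0536). The summed hepatocyte markers given earlier, from the cells that make hepcidin, were highest in APAP and lowest in NC livers. Most of that sum was Alb, with means of 28741 FPKM in NC, 44835 in APAP and 33180 in AMSC livers. The part of the number of hepatocytes in the values of Hamp was not tested. Of these 10 markers, 3 rose in APAP against NC (Alb, Apoa1 and Fgb) and 7 did not pass, where 25.9% of all genes tested passed. The log2 fold changes of the 7 were 0.72 (Tat), 0.38 (Ahsg), 0.31 (Apob), 0.22 (Serpina1c), 0.17 (Ttr), 0.09 (Asgr1) and -0.14 (Cps1). Of the 10 markers, 9 were higher in APAP against NC, 5 had an unadjusted p under 0.05 and 4 passed with voom. In AMSC against APAP 0 of 10 passed with limma, where 3.78% of all genes did. There 3 had an unadjusted p under 0.05 and 2 passed with voom.

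Hamp2 (ENSMUSG00000056978, chr7:30922372-30924681, minus strand), the neighbouring copy, was low and showed no group pattern. It was at 19.5, 33.0 and 33.1 FPKM in NC livers, at 52.0, 12.3 and 40.8 in APAP livers and at 46.4, 13.2 and 24.1 in AMSC livers. All groups overlapped, and Hamp2 passed in no comparison, with 95% intervals of the log2 fold change of -1.03 to 1.24 for APAP against NC, -1.61 to 1.08 for AMSC against APAP and -1.09 to 0.76 for AMSC against NC. Hamp supplied between 94.4% and 99.6% of the summed FPKM of the pair in each library. The transcripts of the copies were identical at 388 of 410 aligned bases (94.6%), with identical runs of up to 87 bases, so the counting could have split their reads and the values of Hamp2 are uncertain. Summing the FPKM of the pair left the calls for Hamp as they were in the 3 comparisons.

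**Figure D2:**
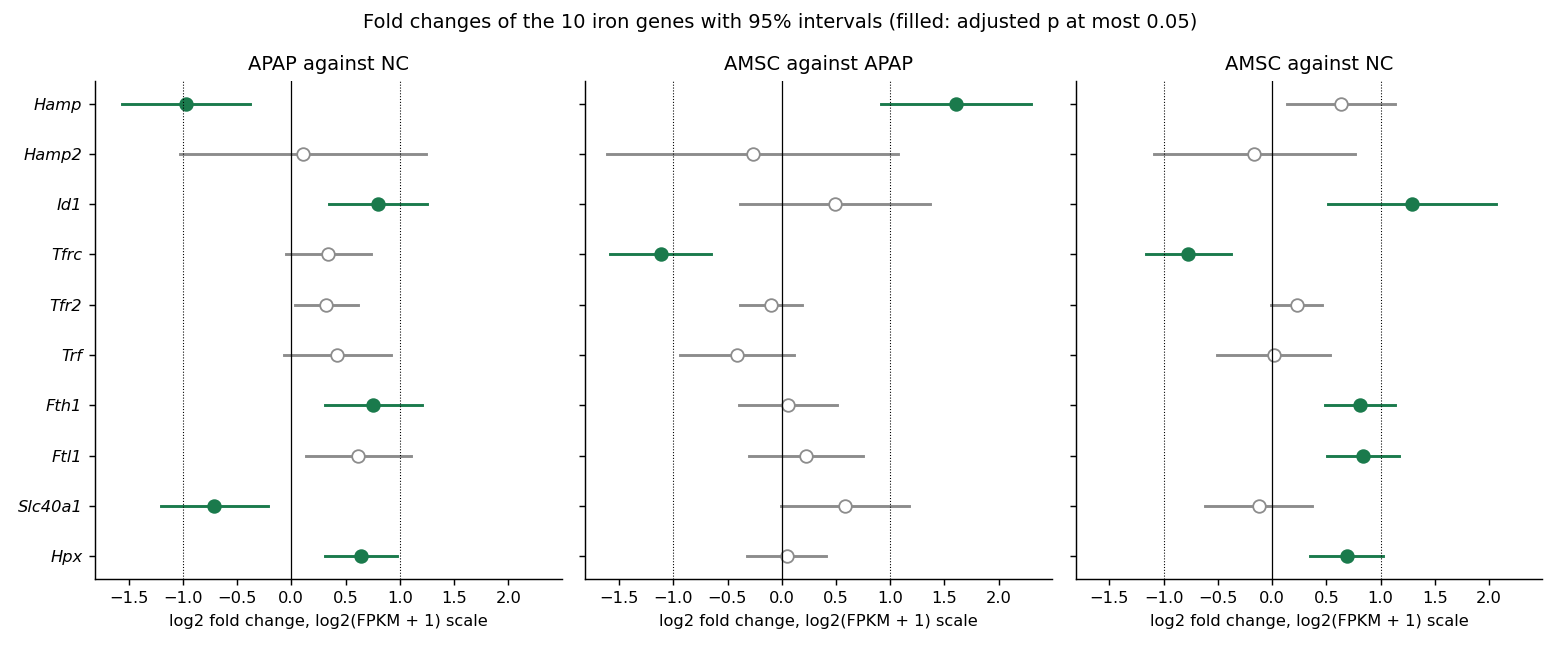
Log2 fold changes of the 10 genes on the log2(FPKM + 1) scale (horizontal axis) with their 95% intervals from limma in the 3 comparisons, 3 livers in each group. Filled points passed at an adjusted p of at most 0.05, and dotted lines mark a difference of 1 on the log2 scale, which Hamp (1.61) and Tfrc (-1.11) exceeded in AMSC against APAP and Id1 (1.29) in AMSC against NC.

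Id1 (ENSMUSG00000042745, chr2:152736251-152737410, plus strand), an inhibitor of basic helix-loop-helix factors and a classic target of BMP-SMAD signalling, rose after APAP, where Hamp fell. It was at 6.25, 6.68 and 5.51 FPKM in NC livers, at 9.13, 10.2 and 15.7 in APAP livers and at 14.2, 9.95 and 30.7 in AMSC livers. NC livers lay below all others, while APAP and AMSC livers overlapped, and AMSC 4 held the highest value. Id1 rose in APAP against NC (log2 fold change 0.80, SE 0.19, adjusted p = 0.0216) and in AMSC against NC (1.29, SE 0.34, adjusted p = 0.0252). The first call was lost when all libraries were fitted together (adjusted p = 0.102). Both calls were lost without any NC liver (adjusted p = 0.0568 to 0.0649), the second also without AMSC 2 (adjusted p = 0.0501), and without AMSC 4 its log2 fold change was 0.86, so that it was no longer a DEG. Between AMSC and APAP livers Id1 did not pass (log2 fold change 0.49, 95% interval -0.38 to 1.37).

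Tfrc (ENSMUSG00000022797, chr16:32608920-32632794, plus strand) encodes transferrin receptor 1, through which cells take up iron bound to transferrin. It was at 9.18, 11.9 and 9.70 FPKM in NC livers, at 13.96, 15.6 and 10.5 in APAP livers and at 7.18, 4.32 and 5.46 in AMSC livers. AMSC livers lay below all others, and NC and APAP livers overlapped. Tfrc fell by 57.6% in the mean of AMSC against APAP livers (log2 fold change -1.11, SE 0.20, adjusted p = 0.0309) and in AMSC against NC livers (-0.77, SE 0.17, adjusted p = 0.0133). In APAP against NC it did not pass (0.34, 95% interval -0.05 to 0.73). Within the APAP and AMSC groups, the order of the livers by Tfrc was the reverse of their order by Hamp. Within the NC group it was not, since NC 3 was highest by Hamp and NC 1 lowest by Tfrc. The first fall was not called without APAP 1, APAP 2, AMSC 3 or AMSC 4 (adjusted p = 0.0554 to 0.111) and the second not without NC 2 (adjusted p = 0.0511). Erythroid markers (8 genes, haemoglobins among them), from a lineage whose immature cells carry much transferrin receptor 1, summed to 135 to 254 FPKM in NC, 306 to 1406 in APAP and 183 to 312 in AMSC livers. In AMSC against APAP all 5 of them that were tested were lower (median log2 fold change -1.51), and all 5 had an unadjusted p under 0.05. Only 1 passed, Alas2 (log2 fold change -0.87), which is 20%, against 3.78% of all genes tested. In APAP against NC 4 of the 5 rose as DEGs, where 7.9% of all genes were DEGs in either direction. The part of erythroid cells in the fall of Tfrc was not tested.

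Tfr2 (ENSMUSG00000029716, chr5:137569840-137587481, plus strand), the hepatocyte receptor that senses transferrin saturation upstream of hepcidin, varied least of the 10 genes within every group, with a coefficient of variation of 6.95% in NC, 8.37% in APAP and 4.09% in AMSC livers. It was at 103, 98.4 and 89.8 FPKM in NC livers, at 127, 128 and 110.0 in APAP livers and at 109.9, 112 and 119 in AMSC livers. NC livers lay below all others, but Tfr2 passed in no comparison (log2 fold change 0.32, 95% interval 0.03 to 0.61, for APAP against NC, -0.10, -0.38 to 0.19, for AMSC against APAP and 0.23, -0.01 to 0.46, for AMSC against NC). As Tfrc fell and Tfr2 did not pass, the FPKM of Tfr2 over that of Tfrc was 9.59 ± 1.497 in NC, 9.26 ± 1.11 in APAP and 21.0 ± 5.39 in AMSC livers (SD, n = 3), and AMSC livers did not overlap with the others.

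Trf (ENSMUSG00000032554, chr9:103204001-103230444, minus strand), which encodes transferrin, the iron carrier of plasma, was at 224, 192 and 301 FPKM in NC livers, at 253, 335 and 370 in APAP livers and at 322, 211 and 196 in AMSC livers. All groups overlapped. Trf passed in no comparison, with 95% intervals of the log2 fold change of -0.07 to 0.92 for APAP against NC, -0.94 to 0.12 for AMSC against APAP and -0.51 to 0.53 for AMSC against NC.

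The ferritin genes, which encode the heavy (Fth1, ENSMUSG00000024661, chr19:9982703-9985092, plus strand) and light (Ftl1, ENSMUSG00000050708, chr7:45457944-45459884, minus strand) subunits of the iron storage shell, were higher in both groups given APAP. Fth1 was at 1762, 1692 and 2088 FPKM in NC livers, at 2389.7, 3361 and 3744 in APAP livers and at 3558, 3146 and 3011 in AMSC livers. Ftl1 was at 1354, 1244 and 1443 FPKM in NC livers, at 1490.4, 2363 and 2503 in APAP livers and at 2497, 2062 and 2714 in AMSC livers. For both genes NC livers lay below all others, APAP 1 was the lowest of the livers given APAP, and APAP and AMSC livers overlapped. Fth1 rose in APAP against NC (log2 fold change 0.76, SE 0.19, adjusted p = 0.0255) and in AMSC against NC (0.81, SE 0.14, adjusted p = 0.00446). Ftl1 rose in AMSC against NC (0.84, SE 0.14, adjusted p = 0.00434) and did not pass in APAP against NC (0.62, 95% interval 0.13 to 1.11, adjusted p = 0.0655), where it passed without APAP 1 (0.85, adjusted p = 0.00598), with voom (adjusted p = 0.0495) and with all libraries in a single fit (adjusted p = 0.0412). Between AMSC and APAP livers neither passed (0.05, 95% interval -0.40 to 0.51, for Fth1 and 0.22, -0.30 to 0.75, for Ftl1). Fth1 over Ftl1 lay between 1.11 and 1.603 in FPKM in all libraries.

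The rise of Fth1 after APAP was not called without NC 1, NC 2, APAP 2 or APAP 3 (adjusted p = 0.0667 to 0.0898), nor after quantile normalization (log2 fold change 0.38, adjusted p = 0.0695), which also ended the call of Ftl1 in AMSC against NC (0.39, adjusted p = 0.0987) and left that of Fth1 there at 0.39. In AMSC against NC both calls stayed in all 6 fits that left out a library. Ftl1 shares runs of 100 bases with several pseudogenes, of which the largest by reads, Ftl1-ps1, held 1.95% as many reads as Ftl1, so the value of Ftl1 is uncertain. The annotation of GENCODE vM21 gives Fth1 an earlier start than the deposited table.

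Slc40a1 (ENSMUSG00000025993, chr1:45908068-45926523, minus strand) encodes ferroportin, the receptor of hepcidin, which is abundant in macrophages and hepatocytes. It was at 13.5, 11.4 and 16.3 FPKM in NC livers, at 9.94, 5.63 and 8.79 in APAP livers and at 9.73, 17.5 and 11.03 in AMSC livers. APAP livers lay below NC livers, and AMSC livers overlapped with both. Slc40a1 fell in APAP against NC (log2 fold change -0.71, SE 0.21, adjusted p = 0.0446), like Hamp. It did not pass in AMSC against APAP (0.58, 95% interval -0.01 to 1.18) or AMSC against NC (-0.13, -0.62 to 0.37). APAP 2 held the lowest and AMSC 3 the highest value of their groups, as for Hamp. The fall was called in 1 of 6 fits that left out a library, the one without APAP 1, and not in the others (adjusted p = 0.0632 to 0.122, log2 fold change -0.83 to -0.50), and it was not called when all libraries were fitted together (adjusted p = 0.0502). Kupffer cell and macrophage markers (12 genes) summed to 134 to 261 FPKM in NC, 193 to 510 in APAP and 118 to 188 in AMSC livers. All 12 were higher in APAP against NC, where Slc40a1 fell. There 2 passed, Cd68 and Timd4 (16.7%, against 25.9% of all genes tested), and 7 had an unadjusted p under 0.05. All 12 were lower in AMSC against APAP, with a median log2 fold change of -1.21. In that comparison 1 passed, Cd68 (8.33%, against 3.78% of all genes), 11 had an unadjusted p under 0.05 and 2 passed with voom. The part of these cells in the values of Slc40a1 was not tested.

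Hpx (ENSMUSG00000030895, chr7:105591613-105600137, minus strand), which encodes hemopexin, the plasma protein that binds free haem, was the most abundant of the 10 messages. It was at 2253, 2168 and 2631 FPKM in NC livers, at 3448, 4089 and 3456 in APAP livers and at 3727, 4250.3 and 3378 in AMSC livers. NC livers lay below all others. Hpx rose in APAP against NC (log2 fold change 0.64, SE 0.14, adjusted p = 0.0155) and in AMSC against NC (0.69, SE 0.15, adjusted p = 0.0111), and did not pass in AMSC against APAP (0.05, 95% interval -0.32 to 0.41). The first rise was not called without NC 1, NC 2 or APAP 2 (adjusted p = 0.0607 to 0.0711) or after quantile normalization (log2 fold change 0.24, adjusted p = 0.140), and the second was called in all 6 fits that left out a library and after quantile normalization, though at 0.38.

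Beside the 10 genes, 115 genes of iron handling were listed in 7 groups, and 99 of them were tested. In APAP against NC 17 rose and 11 fell (28.3%, against 25.9% of all genes), in AMSC against APAP 10 rose and 2 fell (12.1%, against 3.78%) and in AMSC against NC 22 rose and 6 fell (28.3%, against 26.0%). The medians of their log2 fold changes were -0.01, 0.07 and 0.05. By list, the shares passing were 12.5%, 8.33% and 20.8% for BMP-SMAD control and 66.7%, 33.3% and 66.7% for inflammatory control. They were 30%, 30% and 40% for uptake, reduction and export and 41.7%, 16.7% and 33.3% for haem scavenging and breakdown. For haem synthesis they were 50%, 12.5% and 37.5%. For sensing, turnover and chaperones they were 27.3%, 0% and 9.09%, and for iron-sulfur assembly 9.09%, 0% and 13.6%. Many of the calls named next were lost under some of the alternatives, and the counts are given for those lost in 4 or more.

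Of 24 genes of BMP-SMAD control of hepcidin, 2 rose and 1 fell in APAP against NC, 2 rose in AMSC against APAP, and 4 rose and 1 fell in AMSC against NC. In APAP against NC and AMSC against NC these shares (12.5% and 20.8%) were below those of all genes tested (25.9% and 26.0%). In AMSC against APAP the share was 8.33%, against 3.78% of all genes. Smad1, a transducer of BMP signals, and Id3, a BMP target like Id1, rose in APAP against NC (log2 fold changes 0.89 and 0.83) and in AMSC against NC (1.02 and 0.81). Hjv, which encodes the BMP co-receptor hemojuvelin, fell in APAP against NC (-0.56). The calls of Hjv and Id3 in APAP against NC were each lost in 7 of 14 alternatives (adjusted p up to 0.135 and 0.156), and that of Id3 in AMSC against NC in 5 of 14 (up to 0.176). Id2 and Fgl1, a hepatocyte protein that antagonises BMPs, rose in AMSC against APAP (0.74 and 0.82) and in AMSC against NC (0.66 and 0.78), and the receptor gene Acvr1 fell in AMSC against NC (-0.42). Fgl1 in AMSC against APAP lost its call in 7 of 14 alternatives (adjusted p up to 0.151) and Id2 in 6 of 14 (up to 0.109), and in AMSC against NC, Fgl1 lost it in 4 of 14 and Acvr1 in 4 of 13. The feedback inhibitor Smad7 and the BMP target Atoh8, both tied to hepcidin, did not pass in AMSC against APAP (1.10, adjusted p = 0.0552, and 0.95, adjusted p = 0.129), though AMSC livers lay above APAP livers for both. Smad7 passed in 4 of 13 alternatives (lowest adjusted p = 0.0247) and Atoh8 in 1 of 14 (0.0286). The ligands Bmp2 and Bmp6, the sensor Hfe, the protease Tmprss6, which cleaves hemojuvelin, and the inhibitor Smad6 passed in no comparison. Bmp6 was at 1.04 ± 0.57 FPKM in NC, 1.55 ± 0.73 in APAP and 1.15 ± 0.08 in AMSC livers. Endothelial markers, from the cells that make these ligands, summed to 29.5 to 62.6, 32.9 to 89.3 and 30.8 to 31.0 FPKM, and their part in the values of the ligands was not tested.

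Of 12 genes of the inflammatory control of hepcidin, 8 rose in APAP against NC, 2 rose and 2 fell in AMSC against APAP, and 7 rose and 1 fell in AMSC against NC. Socs3, the feedback inhibitor of interleukin-6 signals, Cebpd and Stat3, transcription factors of the acute phase, rose in APAP against NC (2.66, 1.77 and 1.27) and in AMSC against NC (2.57, 2.43 and 1.77). Hamp fell in the first of these comparisons and did not pass in the second. In AMSC against APAP, where Hamp rose, the receptor genes Il1r1 and Il6ra rose (2.06 and 1.01). Il6ra was at 7.26 ± 1.78 FPKM in NC, 8.30 ± 1.14 in APAP and 17.8 ± 3.31 in AMSC livers. Inhbb, which encodes a subunit of activin B, rose in APAP against NC (1.90) and fell in AMSC against APAP (-1.28), opposite to Hamp both times. It was at most 0.396 FPKM in NC livers, so its fold depends on the pseudocount and was 4.66 with a pseudocount of 0.1. In AMSC livers it was at most 0.923 FPKM, so Inhbb reached the mean of 1 FPKM needed for testing only through the APAP livers. Its calls, and the counts that include them, are thus not independent of that filter. Jak2, a kinase of the interleukin-6 receptor, fell in AMSC against APAP (-0.75), and Cebpa, a factor that maintains Hamp transcription, fell in AMSC against NC (-0.72). Creb3l3 passed in no comparison. The calls of Il6ra, Inhbb and Jak2 in AMSC against APAP were lost in 5 of 14, 4 of 13 and 7 of 13 alternatives, and that of Cebpa in AMSC against NC in 5 of 14.

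Of 10 further genes of iron uptake, reduction and export, 2 rose and 1 fell in APAP against NC, 3 rose in AMSC against APAP and 4 rose in AMSC against NC. Lcn2, which encodes the siderophore binder lipocalin 2, was at 2.30 ± 0.257 FPKM in NC, 9.73 ± 5.32 in APAP and 156 ± 74.8 in AMSC livers and rose in all 3 comparisons (1.57, 3.90 and 5.46 in the order APAP against NC, AMSC against APAP and AMSC against NC). Scara5, a ferritin receptor, was at most 0.696 FPKM in all NC and APAP livers and at 3.47, 7.95 and 3.61 FPKM in AMSC livers. It rose against both (1.98 over APAP and 1.96 over NC livers, and 3.14 and 3.11 with a pseudocount of 0.1). Scara5 reached the mean of 1 FPKM needed for testing only through the AMSC livers. Its calls, and the counts that include them, are thus not independent of that filter. The ferrireductase gene Steap4 fell in APAP against NC (-0.69) and rose in AMSC against APAP (1.81), which were the directions of Hamp. Slc39a14, the main hepatocyte importer of iron that is not bound to transferrin, rose in AMSC against NC (1.55) and did not pass in the other comparisons (0.89 and 0.66), and Slc39a8 rose in APAP against NC (0.48). The rise of Steap4 in AMSC against APAP was lost in 5 of 14 alternatives and that of Slc39a8 in 6 of 13. Slc11a2 and the ferroxidase gene Cp passed in no comparison. Neutrophil markers, from cells that also hold lipocalin 2, summed to 0.355 to 1.94 FPKM in NC, 7.85 to 35.3 in APAP and 4.44 to 6.27 in AMSC livers, with Camp at 0 in all libraries. All 3 of them that were tested were lower in AMSC than in APAP livers, where Lcn2 rose, and none passed with limma or voom (3 at an unadjusted p under 0.05). Among the 3, Retnlg and S100a8 reached the mean of 1 FPKM needed for testing only through the APAP livers. Their means were 0.131 and 0.308 FPKM in NC, 2.89 and 5.70 in APAP and 1.38 and 1.27 in AMSC livers. That they were lower in AMSC livers is thus not independent of that filter.

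**Figure D3:**
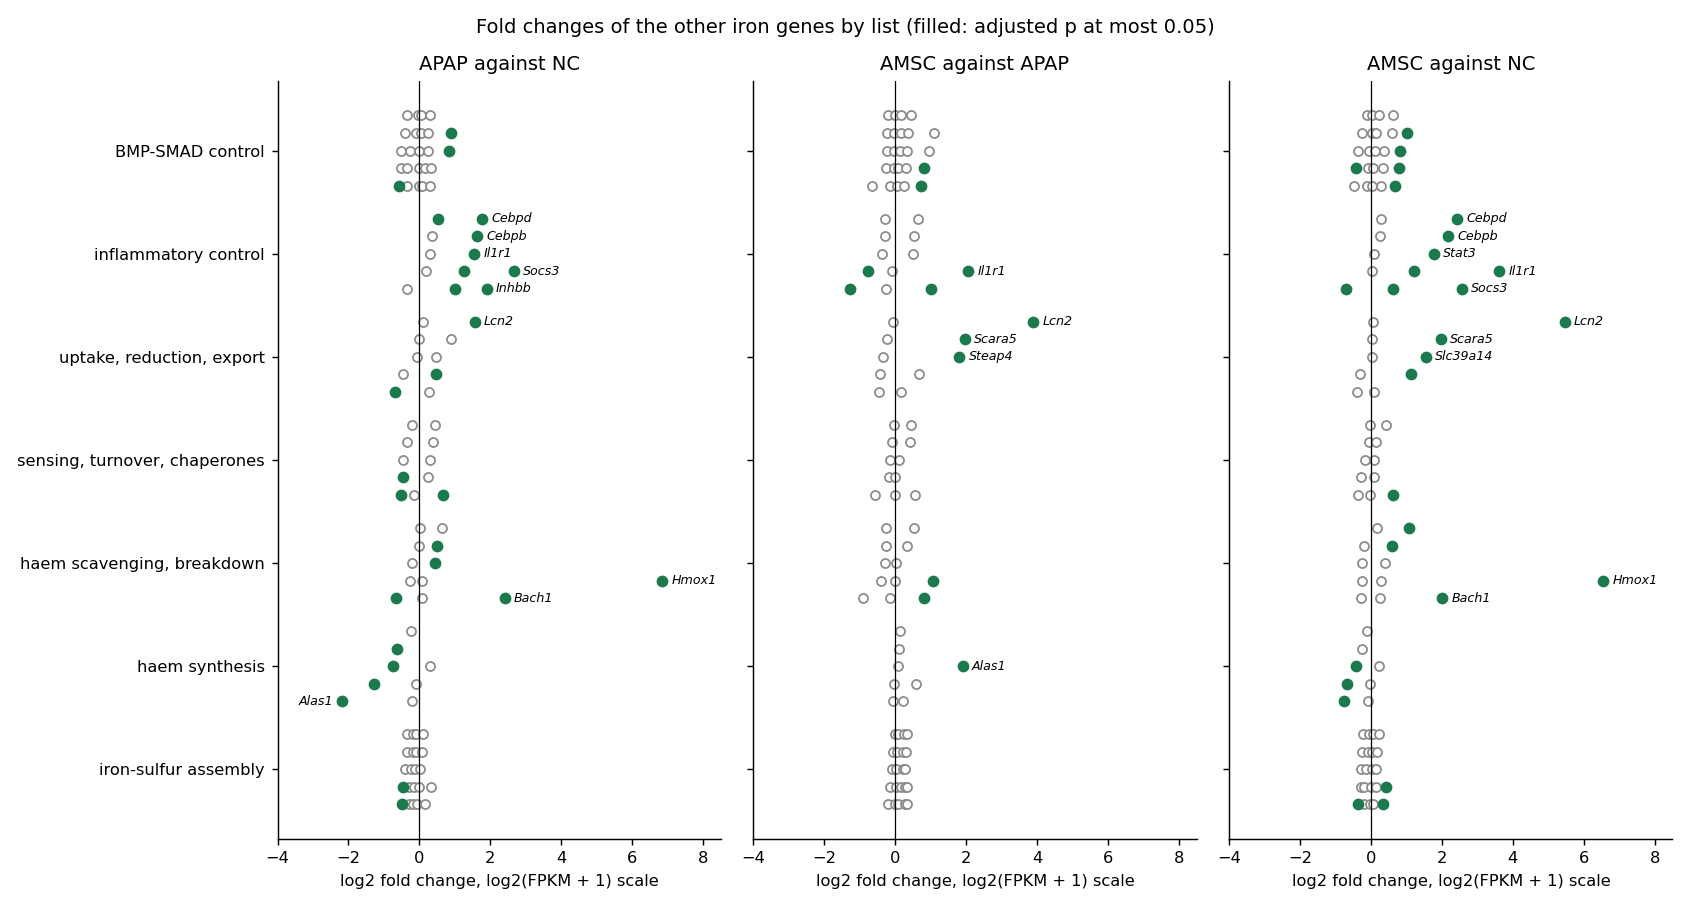
Log2 fold changes on the log2(FPKM + 1) scale (horizontal axis) of the 99 further iron genes tested, in rows by list, for the 3 comparisons. Filled points passed at an adjusted p of at most 0.05, and those farthest from 0 are named, such as Hmox1 at 6.85 and Alas1 at -2.17 in APAP against NC and Lcn2 at 3.90 and Alas1 at 1.91 in AMSC against APAP.

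Of 12 genes of haem scavenging and breakdown, 4 rose and 1 fell in APAP against NC, 2 rose in AMSC against APAP and 4 rose in AMSC against NC. Hmox1, the inducible haem oxygenase that frees iron from haem, was at 6.34 ± 3.10 FPKM in NC, 835 ± 279.6 in APAP and 715 ± 336 in AMSC livers and rose against NC in both (6.85 and 6.55), as did Bach1, a haem-binding repressor of Hmox1 and the ferritin genes (2.41 and 2.01). Hp, which encodes the haemoglobin scavenger haptoglobin, was at 1918 ± 334, 1940.3 ± 200.4 and 4133 ± 1182 FPKM in NC, APAP and AMSC livers. Unlike Hpx, Hp did not pass in APAP against NC (0.03, adjusted p = 0.924, and -0.40 with adjusted p = 0.0351 after quantile normalization), and it rose in AMSC against APAP (1.06, lost in 7 of 14 alternatives, adjusted p up to 0.220) and AMSC against NC (1.08). Blvrb, a biliverdin reductase, fell in APAP against NC (-0.65) and rose in AMSC against APAP (0.81, lost in 6 of 14 alternatives).

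Of 8 genes of haem synthesis, 4 fell in APAP against NC, 1 rose in AMSC against APAP and 3 fell in AMSC against NC. Alas1, the rate-limiting enzyme of haem synthesis in liver, was at 205 ± 14.6 FPKM in NC, 45.4 ± 9.67 in APAP and 176 ± 61.5 in AMSC livers. It fell in APAP against NC (-2.17) and rose in AMSC against APAP (1.91), the directions of Hamp. Cpox, Uros and Alad, enzymes of later steps, fell in APAP against NC (-1.27, -0.74 and -0.63) and in AMSC against NC (-0.69, -0.77 and -0.42, the last lost in 5 of 14 alternatives). The call of Alad in APAP against NC was not followed through the alternatives. Of 11 genes of iron sensing, ferritin turnover and iron chaperones, 1 rose and 2 fell in APAP against NC, none passed in AMSC against APAP with limma or voom (3 at an unadjusted p under 0.05), and 1 rose in AMSC against NC. Ireb2, which encodes the iron regulatory protein 2 that binds the hairpins shown earlier, and Pcbp1, an iron chaperone that loads ferritin, fell in APAP against NC (-0.47 and -0.53, lost in 7 and 4 of 14 alternatives). Aco1, which encodes the other iron regulatory protein, Fbxl5, which marks iron regulatory protein 2 for degradation, and Ncoa4, the receptor for ferritin breakdown, passed in no comparison. Of 22 genes of iron-sulfur cluster assembly, 2 fell in APAP against NC, none passed in AMSC against APAP with limma or voom (2 at an unadjusted p under 0.05), and 2 rose and 1 fell in AMSC against NC.

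The genes whose log2(FPKM + 1) values ran most like those of Hamp over the 9 libraries were Cdip1, Tmem268, Rab28, Ugt2b35 and Zhx3, with Pearson's r of 0.945, 0.943, 0.943, 0.933 and 0.925. These values describe 9 libraries in 3 groups and carry the differences between groups. Cdip1 was at 7.73 ± 0.72 FPKM in NC, 4.999 ± 0.475 in APAP and 10.9 ± 2.46 in AMSC livers (SD, n = 3), and Ugt2b35 at 69.6 ± 9.41, 54.8 ± 7.96 and 109 ± 17.5 FPKM. Each of the 5 genes was on average lowest in APAP and highest in AMSC livers, and highest of all in AMSC 3, like Hamp. This likeness follows largely from their choice by correlation with Hamp over the same 9 libraries and is not a separate result. Stromal markers, which include those of the cells given, summed to 22.8 to 42.2 FPKM in NC, 34.1 to 65.3 in APAP and 32.7 to 49.9 in AMSC livers. Dcn alone had means of 17.1, 30.6 and 23.9 FPKM. In AMSC against APAP 8 of 9 tested were lower. Among the 8, Acta2 and Des reached the mean of 1 FPKM needed for testing only through the APAP livers. Their means were 0.715 and 1.01 FPKM in NC, 2.96 and 1.44 in APAP and 1.21 and 0.854 in AMSC livers. The count that includes them is thus not independent of that filter. The 1 that was higher, Pdgfrb, was at 1.33, 0.943 and 1.24 FPKM in APAP and 2.01, 1.91 and 1.66 in AMSC livers. There 0 of 9 passed with limma or voom (3 at an unadjusted p under 0.05). Whether the given cells added to these values was not tested.

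**Figure D4:**
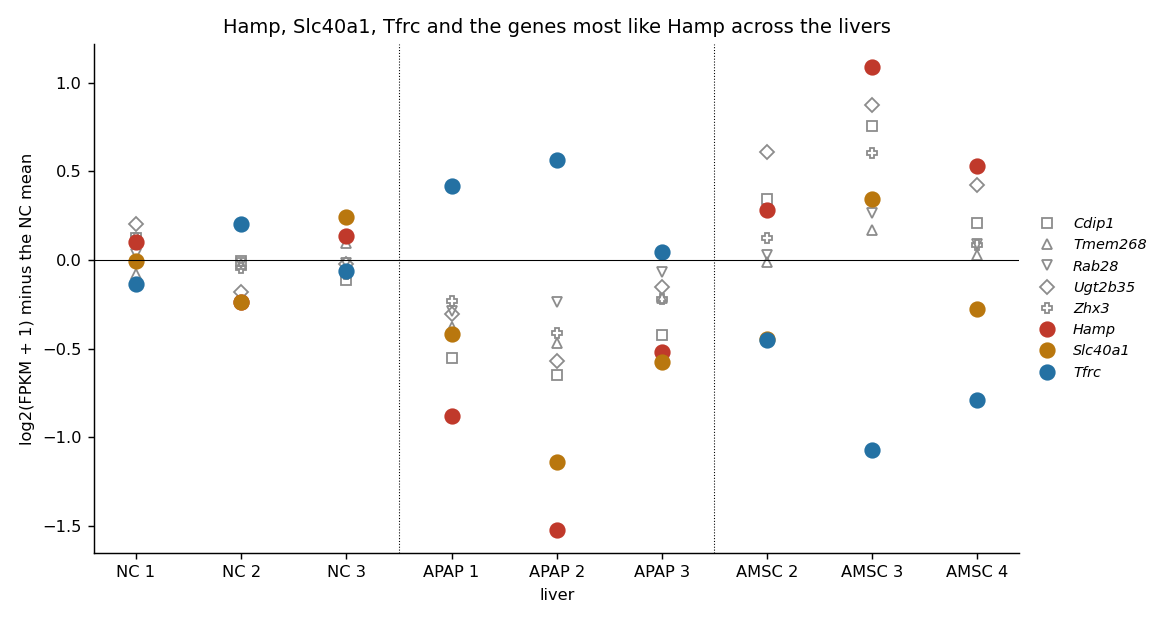
Log2(FPKM + 1) minus the NC mean (vertical axis) of Hamp, Slc40a1 and Tfrc (coloured circles) and of the 5 genes most like Hamp (grey symbols) in each of the 9 livers (horizontal axis, with dotted lines between the NC, APAP and AMSC groups). Hamp was lowest in APAP 2 (566 FPKM) and highest in AMSC 3 (3457 FPKM), where Tfrc was highest (15.6 FPKM) and lowest (4.32 FPKM).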

How the data were processed

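RNA-seq values of 9 mouse livers (3 NC, 3 APAP and 3 AMSC) were analysed, grouped by the sample labels. The authors deposited FPKM values with gene lengths and coordinates; the builds in the submitters' processing notes are GRCm38 and mm10, and the aligner and counting program are not given in the sources used here. Of 54409 gene identifiers shared with GENCODE vM21 (GRCm38), 98.33% had the same coordinates. FPKM times length gave whole reads for 100% of the values above 0 (within 0.1 of a step), with denominators proportional to median-of-ratios size factors. Libraries were thus already scaled to each other by these factors, and not to a common total of FPKM. Depth was 13418921 to 16210930 reads on genes.

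Tests used log2(FPKM + 1), a pseudocount of 1, and the 9699 genes whose mean reached 1 FPKM. They were run in R 4.3.3 by limma 3.58.1, with moderated variances and a trend, 2 groups in each fit, with Benjamini-Hochberg adjustment over all genes tested. Intervals are 95% intervals of the fit without adjustment. The fit was tested on simulated data. P-values measure the spread between mice. The alternatives tried were all 24849 genes above 0, a minimum of 5 FPKM, a pseudocount of 0.1, quantile normalization, a single fit of all libraries, the replicate number as a block, no trend, voom on whole reads, Hamp and Hamp2 summed, and leaving out each library. Deviations of same-numbered APAP and NC libraries from their group means correlated at 0.213, 0.160 and 0.378, so these numbers were taken as pairs from the data alone. The labels go against the last pair, since NC replicate 3 carries another date and the number 1 in its title. The block changed no call of the 10 genes there.

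The 10 genes and all lists were chosen with earlier results of these data known. Named beside the 10 were a set of hepcidin and iron genes and, per list and comparison, up to 3 genes that rose and 3 that fell most among those passing (not all are given). Marker genes named singly were chosen after their values were seen. Hairpins and motifs were searched in GENCODE vM21 transcripts and RefSeq promoters with Python 3.11.15.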

Additional observations from a re-analysis of the deposited data

How the results depend on the processing

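Of 423 values of the 10 genes under alternatives, 346 kept their direction and side of the threshold, 53 lost the call, 5 gained it and 19 changed sign. Of 868 values of the other named genes, 709 kept both, 149 lost the call, 6 gained it and 4 changed sign. No called fold change of the 10 genes changed sign. Quantile normalization, which gives all libraries the same set of values, gave 1 DEG and 3 passing genes of the 10 in APAP against NC and 1 of each in AMSC against APAP. Testing all genes above 0, so 24849 in place of 9699, gave 0 passing genes of the 10 in APAP against NC, 0 passing genes and 0 DEGs in AMSC against APAP, and 1 passing gene and 0 DEGs in AMSC against NC, with limma. With the replicate block, 2 of the 10 passed and 0 were DEGs in AMSC against NC (Fth1, Ftl1 and Hpx lost the call), and no call of the 10 changed in the other comparisons. Numbers in the AMSC comparisons are only shared names (correlations of -0.104 and -0.293 with APAP, and of -0.199 and -0.309 with NC, for numbers 2 and 3), and AMSC 4 has no partner.

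Over all genes tested, DEGs in APAP against NC (766) were 478 at a mean of at least 5 FPKM and 1197 with voom, and 1318 in place of 2514 genes passed at 5 FPKM. In AMSC against APAP (190 DEGs), 21 were left over all genes, 102 at 5 FPKM, 335 with the block and 296 with voom, and the 367 passing genes became 53 over all genes, 178 at 5 FPKM and 624 in a single fit. In AMSC against NC (583 DEGs), there were 915 with a pseudocount of 0.1 and 968 with voom, and the 2521 passing genes became 1509 at 5 FPKM and 846 with the block. The causes of these shifts were not tested.

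Leaving out a library gave 683 to 872 DEGs, 1353 to 2749 passing genes, 0 to 1 DEGs and 0 to 6 passing genes of the 10 in APAP against NC. It gave 90 to 229, 100 to 366, 0 to 2 and 0 to 2 in AMSC against APAP, and 555 to 627, 1678 to 2356, 0 to 1 and 3 to 5 in AMSC against NC.

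The values that changed sign had not passed with the settings of the report. Leaving out a library moved Hamp2 between -0.29 (APAP 1) and 0.71 (APAP 2) in APAP against NC, where it was also -0.14 (NC 1) and -0.11 (APAP 3), between -0.88 (APAP 2) and 0.16 (AMSC 3) in AMSC against APAP, where it was also 0.12 (APAP 1), and between -0.61 (AMSC 2) and 0.26 (AMSC 3) in AMSC against NC. In AMSC against APAP, Fth1 lay between -0.14 (APAP 1) and 0.19 (APAP 3), with -0.015 without AMSC 2, Ftl1 between -0.014 (APAP 1) and 0.36 (APAP 3), and Hpx between -0.042 (AMSC 3) and 0.13 (APAP 2). In AMSC against NC, Trf lay between -0.21 (AMSC 2) and 0.19 (NC 3), with -0.021 without NC 1 and -0.13 without NC 2, and Slc40a1 between -0.36 (AMSC 3) and 0.034 (AMSC 2). The replicate block in AMSC against APAP gave 0.14 for Hamp2, -0.086 for Id1, -0.085 for Fth1 and -0.10 for Ftl1. Quantile normalization gave -0.18 for Trf in AMSC against NC. Hp in APAP against NC became -0.40 after quantile normalization, where it passed, and lay at -0.017 without NC 1, -0.069 without NC 2 and -0.042 without APAP 2. Depth limits Hamp2 most (from 89 reads), and with 3 livers a group the intervals are wide.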
